A study of Mus musculus with 48 samples.

Results

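Lungs of obese and of regular weight mice that had both breathed sidestream cigarette smoke were compared directly. The comparison used the 8 arrays titled DIO-SS and the 8 arrays titled RW-SS, 16 of the 48 arrays of the series, and all 12393 genes that the arrays measured. It describes the state of the lungs at the end of exposure, not how far smoke had moved each diet group from air. The animals were male C57BL/6 mice aged 15 weeks when exposure began. Regular weight mice (RW) ate a standard chow with about 5 kcal% fat, and diet-induced obese mice (DIO) were put on pellets with 60 kcal% fat at 6 weeks and had eaten them for 9 weeks before exposure. Both groups inhaled sidestream smoke (SS) through the nose for 5 hours a day on 8 days within 2 weeks, and lungs were taken 1 day after the last exposure. Each array held RNA of 1 whole lung sample. The remaining 32 arrays came from mice of both diets that breathed filtered air (SC) or mainstream smoke (MS), 8 per group. They enter below for the shared estimate of the spread and as reference diet differences. The deposited text on the diet also mentions a 4-day exposure to LPS, and whether that applies to these animals is not settled by it.

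Sidestream smoke rises from the lit end of a cigarette between puffs, while mainstream smoke is drawn through the cigarette. Polycyclic aromatic hydrocarbons in smoke bind the aryl hydrocarbon receptor, which switches on xenobiotic enzymes such as Cyp1a1. The lung also runs a circadian clock, in which Bmal1 (Arntl in the files) and Clock drive genes such as Dbp and Nr1d1, and Nr1d1 in turn represses Bmal1. Heat shock proteins help other proteins to fold and are induced together by the factor HSF1.

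Values are log2 signals, so a difference of 1 is a doubling, and a value after ± is the standard error of a difference unless SD is written. Each group had n = 8. Each gene's p comes from limma with Benjamini-Hochberg adjustment over all 12393 genes, and a gene was called at an adjusted p under 0.05. Surfactant protein C (Sftpc), a marker of alveolar type 2 cells, was at 15.06 ± 0.03 (SD) in regular weight and 15.07 ± 0.02 (SD) in obese lungs. These values are close to the highest of the series (15.27). Array RW-SS-6 stood apart. Its mean correlation to the other 15 sidestream arrays was 0.985, against 0.992 for RW-SS-8 and at least 0.9935 for the other regular weight arrays and for every obese array. Its mean log2 level of 15 adipocyte markers lay 3.12 above the mean of the series, against at most 0.64 on the other regular weight arrays and -0.60 to 0.58 on the obese arrays. The summed linear signal of these markers was 83846 on RW-SS-6, at most 16035 on the other regular weight arrays and 5702 to 14273 on the obese arrays. Ucp1, the uncoupling protein of brown fat, had 12.97 on RW-SS-6 and 4.41 to 5.05 on the 7 other regular weight arrays. The main counts are therefore also given without RW-SS-6.

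Obese and regular weight lungs differed in 121 genes under sidestream smoke (0.976% of those tested). Of these, 81 were higher (0.654%) and 40 were lower (0.323%) in obese lungs, and 34 differed by more than 1.5-fold. Higher genes that were also called without RW-SS-6 included genes of the circadian clock (Dbp, Nr1d1), the vessel wall (Edn1), elastic fibres (Mfap4) and chaperones (Hsph1). Lower genes that were also called without it included genes of glucocorticoid-responsive transcription (Zbtb16), xenobiotic metabolism (Cyp1a1) and the cold response (Cirbp). The largest difference on each side, that of Crim1 (1.18) and that of Igha (-2.06), was not called without RW-SS-6. The median difference of all genes was -0.0029, and 48.6% of genes had a positive difference. In 89 genes (0.718%) no array of a group lay within the range of the other group, and 37 of the 121 called genes (30.6%) were among them.

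Without RW-SS-6, 52 genes were called (0.420%), 33 higher (0.266%) and 19 lower (0.153%), and 23 of the 52 differed by more than 1.5-fold. The 7 other regular weight arrays and the obese arrays did not overlap in 121 genes (0.976%), of which 26 were among the 52. Of the 121 genes, 49 remained and 72 were lost, 49 of the higher and 23 of the lower genes. The lost genes had an adjusted p of 0.050 to 0.135 without this array, none changed sign, and in 61 of the 72 the difference was smaller without it. RW-SS-8 weighed as much, since 47 genes were called without it (0.379%). Without both arrays 25 genes were called (0.202%), 20 higher (0.161%) and 5 lower (0.0403%), and 24 of the 25 were among the 121. The count was also set by arrays outside the comparison, through the shared spread. It was 456 when the 4 other arrays that stood apart, DIO-SC-3, DIO-SC-7, DIO-MS-1 and DIO-MS-6, were left out, and all 121 genes were among them. In a fit to the 16 sidestream arrays alone it was 415, of which 97 were among the 121, and without RW-SS-6 that fit called 463, with 96 of the 121. Leaving out any 1 of the obese arrays gave 57 to 101 genes.

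**Figure D1:**
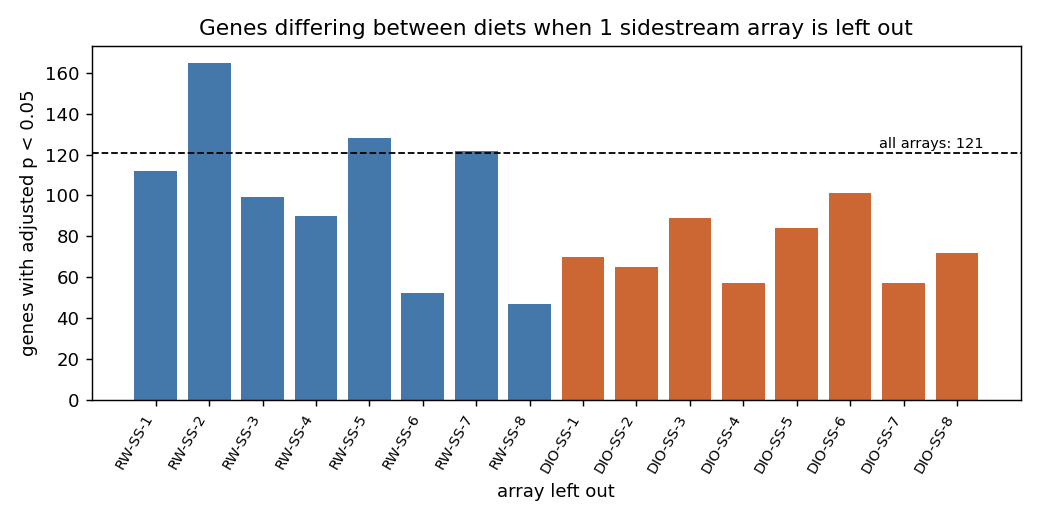
Number of genes called at an adjusted p under 0.05 in obese against regular weight lungs under sidestream smoke (vertical axis) when 1 of the 16 arrays is left out (horizontal axis, blue for regular weight, orange for obese). The dashed line is the count of 121 with all arrays. The bars of RW-SS-8 and RW-SS-6 are the lowest, at 47 and 52, and that of RW-SS-2 is the highest, at 165.

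A set of 19 genes was called in each of 30 fits, namely that with all arrays and 29 others that changed the arrays, the probe sets, the filter, the centring or the variance model. They were 16 higher genes (Edn1, Dbp, Nr1d1, Mfap4, Retnla, Hsph1, Cp, Pde4b, Acsm1, Itih2, Tfrc, Nr1d2, Palld, Rgs4, Foxq1 and Slc38a2) and 3 lower genes (Cirbp, Grp and Fas). This set was drawn up after the values had been seen, and its largest adjusted p over the fits was 0.0439, for Rgs4 and Acsm1.

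**Figure D2:**
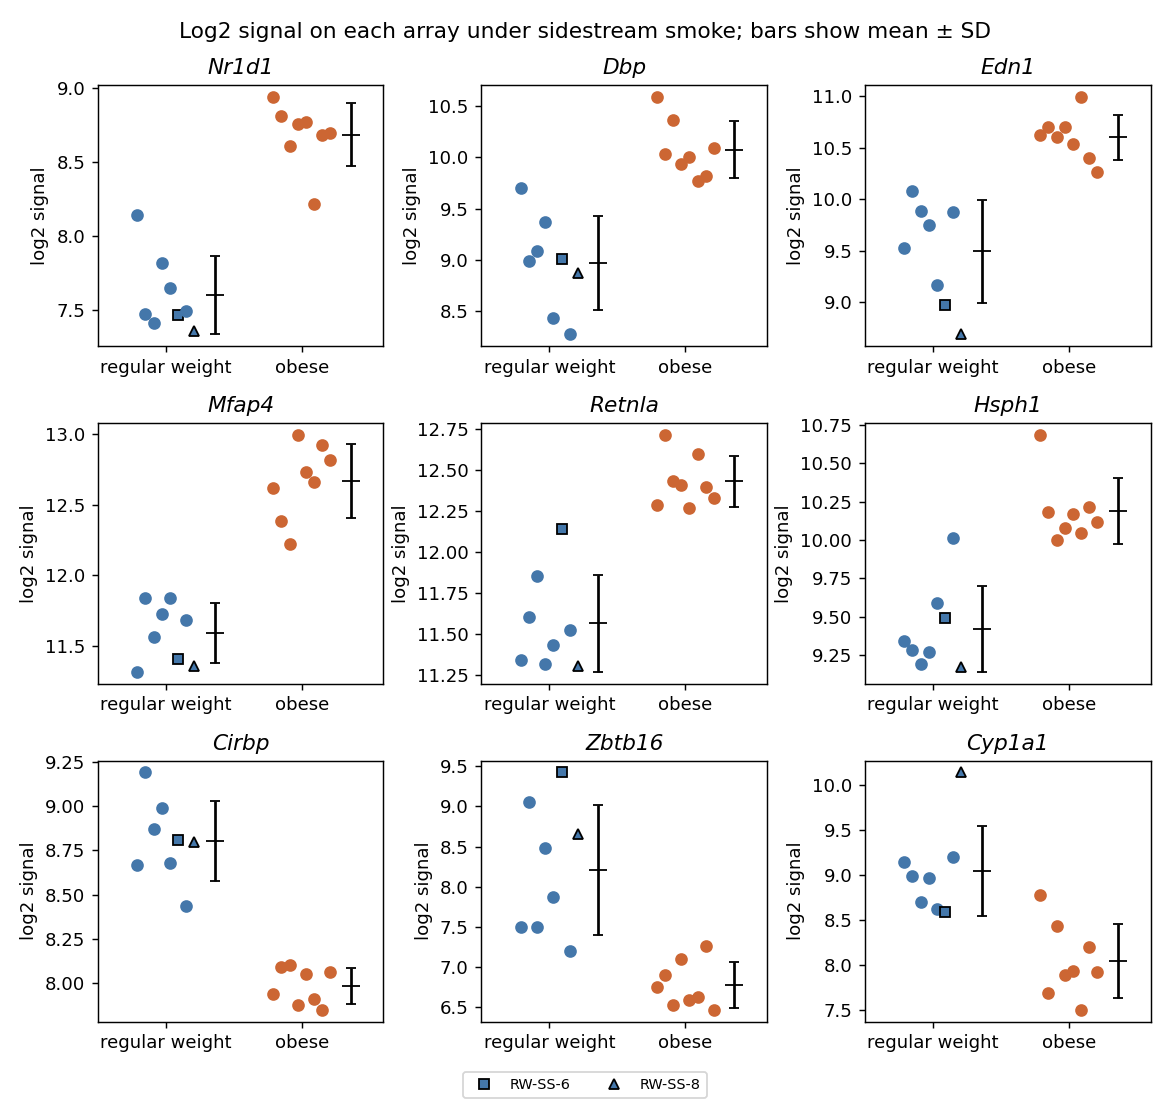
Log2 signal (vertical axis) of 9 genes on each of the 8 regular weight arrays (blue) and 8 obese arrays (orange) under sidestream smoke, with the group mean and SD as a black bar to the right. A square marks RW-SS-6 and a triangle RW-SS-8. Nr1d1, Dbp, Edn1, Mfap4, Retnla and Cirbp have no overlap between the groups, while Hsph1, Zbtb16 and Cyp1a1 overlap.

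Dbp, Nr1d1, Nr1d2 and Per3, clock genes of the Dbp phase, were higher in obese lungs. They were 4 of the 12 measured genes that peak with Dbp, and none of the 12 was called lower, against 0.654% of all genes called higher. All 4 were also called without RW-SS-6 and 3 without RW-SS-8 as well. The median of the 12 was 0.11, and Per1, Usp2, Bhlhe41 and Cry2 had a negative difference. Dbp, a transcription factor of the clock's output, had 8.28, 9.0 and 9.70 (lowest, median, highest) in regular weight lungs and 9.77, 10.02 and 10.59 in obese lungs. All 8 obese arrays lay above all 8 regular weight arrays. The difference was 1.11 ± 0.16, or 2.15-fold (adjusted p = 3.9e-05, and 1.4e-04 without RW-SS-6). Nr1d1, which encodes the repressor REV-ERB alpha, ranged from 7.36 over a median of 7.49 to 8.14 in regular weight and from 8.21 over 8.73 to 8.94 in obese lungs, again without overlap. Its difference of 1.08 ± 0.12 had the smallest adjusted p of all genes (8.3e-08), and it was 1.02 without RW-SS-6 and RW-SS-8. Nr1d2, the related repressor REV-ERB beta, was higher by 0.53 ± 0.08 (adjusted p = 1.2e-04). Per3, a period gene, was higher by 0.42 ± 0.09 (adjusted p = 0.0093, and 0.060 without both arrays). The obese arrays lay above all regular weight arrays for Nr1d2 and Per3 too.

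The other clock genes were not called. Tef, a relative of Dbp, differed by 0.23 ± 0.08 (adjusted p = 0.23), Per1 by -0.37 ± 0.20 (0.57), Per2 by 0.14 ± 0.11 (0.24 unadjusted, 0.82 adjusted) and Hlf by 0.09 ± 0.11 (0.93). None of the 5 measured genes that peak with Bmal1 was called, and the median of that list was -0.17. Arntl itself ranged from 7.66 to 8.40 in regular weight and from 7.19 to 7.87 in obese lungs, a difference of -0.46 ± 0.15 (adjusted p = 0.16), and 5 of 8 obese arrays lay below every regular weight array. Nfil3 differed by -0.25 ± 0.13 (0.56), Cry1 by -0.17 ± 0.09 (0.54), Npas2 by -0.11 ± 0.10 (0.84) and Clock by 0.11 ± 0.09 (0.81). Levels of clock genes change over the day, and the sources used here do not give the hour at which each group was sampled.

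The diet difference of Dbp and Nr1d1 was called under both smokes and not in air. In air Dbp differed by -0.20 ± 0.16 and Nr1d1 by 0.08 ± 0.12, with adjusted p of 0.49 and 0.74, while under mainstream smoke they were higher by 0.74 ± 0.16 and 0.97 ± 0.12 (adjusted p = 0.012 and 5.6e-07). Nr1d2 and Per3 were called under sidestream smoke alone, with 0.27 ± 0.08 and 0.07 ± 0.09 under mainstream smoke (adjusted p = 0.098 and 0.80). In air 1 other clock gene was called, Nfil3 of the Bmal1 phase, higher by 0.44 ± 0.13 (adjusted p = 0.026). The sidestream diet difference exceeded that in air by 1.31 ± 0.23 for Dbp (adjusted p = 7.1e-04), 1.0 ± 0.17 for Nr1d1 (4.2e-04), 0.59 ± 0.12 for Nr1d2 (0.0044) and 0.59 ± 0.13 for Per3 (0.0095). For none of the 4 was a difference between the smokes called.

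The promoter of Per3 is shown because it holds the element that Dbp and its relatives bind. Promoters came from RefSeq (mouse assembly GRCm38.p6), from 250 bases before to 50 bases after the start of a gene, and motifs were searched on both strands. The D-box, searched as TTATGNAA, was found in the promoter of 1 of the 4 called clock genes. It was found in 2.92% of the 9887 tested genes with a promoter and in 3.38% of all 32851 promoters. The E-box bound by Bmal1 and Clock, CACGTG, was found in none of the 4, in 10.8% of the 9887 and in 7.15% of all promoters. Per3 holds 2 D-boxes, which begin 205 and 158 bases before the start. The stretch below lies on the minus strand at chr4:151044786-151044885, and capitals mark the D-boxes.
Per3: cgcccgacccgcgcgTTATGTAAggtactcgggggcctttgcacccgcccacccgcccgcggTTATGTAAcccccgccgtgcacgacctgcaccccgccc

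Several heat shock genes were higher in obese lungs, most by small amounts. Of 24 measured, 9 were called higher and none lower, 23 had a positive difference and the median was 0.30. Of all genes, 0.654% were called higher and 48.6% had a positive difference. Without RW-SS-6, 4 were called and the median was 0.28, and without RW-SS-8 as well 2 were called, while without all 5 arrays that stood apart 12 were. Hsph1, a large relative of Hsp70 that reloads it with nucleotide, had 9.18, 9.31 and 10.01 (lowest, median, highest) in regular weight and 10.002, 10.14 and 10.69 in obese lungs. The groups touched at 1 regular weight array, and 7 of 8 obese arrays lay above all regular weight arrays. The difference was 0.77 ± 0.12, or 1.70-fold (adjusted p = 2.7e-04). Hsp90aa1, the inducible form of Hsp90, was higher by 0.37 ± 0.08 (adjusted p = 0.0092), with 12.17 to 12.65 in regular weight and 12.54 to 12.93 in obese lungs. Serpinh1, the collagen chaperone, was higher by 0.42 ± 0.10 (0.028), Hspa4l by 0.40 ± 0.10 (0.035) and Chordc1, a partner of Hsp90, by 0.33 ± 0.09 (0.046). The last 3 were not called without RW-SS-6, where their adjusted p was 0.055, 0.075 and 0.099, although Serpinh1 and Chordc1 had no overlap between the groups. The other called members, Ahsa1, Hspa8, St13 and Stip1, differed by 0.22 to 0.31, and Hspa8 was also called without RW-SS-6 and RW-SS-8.

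The most inducible members were not among the called genes. Hspa1b and Hspa1a, the stress-inducible forms of Hsp70, differed by 0.61 ± 0.24 and 0.43 ± 0.20 under sidestream smoke (adjusted p = 0.29 and 0.43). In air the same diet difference was 3.01 ± 0.24 and 2.29 ± 0.20, and the sidestream difference minus that in air was -2.39 ± 0.34 (adjusted p = 2.4e-05) and -1.85 ± 0.28 (8.6e-05). For Hsph1 the same quantity was -0.75 ± 0.18 (adjusted p = 0.023). Of the 24 genes, 20 were called higher in air (2.29% of all genes were called higher there) with a median of 0.52, and 13 under mainstream smoke (0.613%) with a median of 0.31. The air values include DIO-SC-3 and DIO-SC-7, which stood apart.

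Cirbp, which mild cold induces and which binds RNA, was lower in obese lungs. It had 8.44, 8.80 and 9.19 (lowest, median, highest) in regular weight and 7.85, 7.99 and 8.10 in obese lungs, with no overlap. The difference was -0.82 ± 0.12 (1.76-fold lower, adjusted p = 5.5e-05), and it was -0.82 without RW-SS-6 as well. The diet difference in air was -1.16 ± 0.12 and under mainstream smoke -0.88 ± 0.12, and a difference of the sidestream value from either was not called (adjusted p = 0.42 and 1.0).

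**Figure D3:**
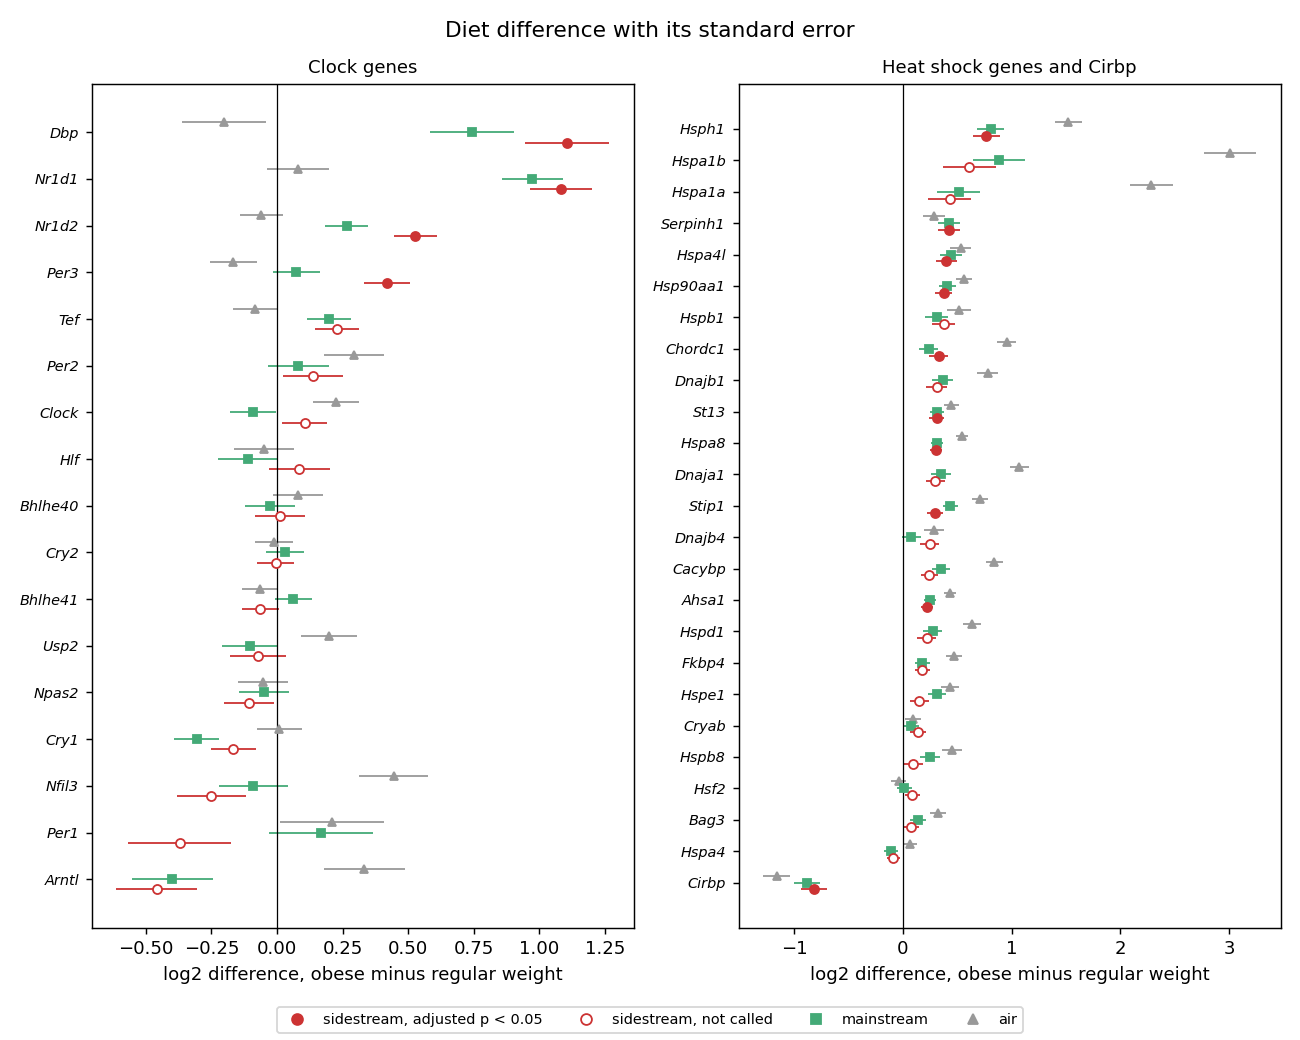
Log2 difference between obese and regular weight lungs (horizontal axis, bars show the standard error, n = 8 per group) for each measured clock gene (left) and for the heat shock genes and Cirbp (right), under sidestream smoke (red, filled where the adjusted p is under 0.05), mainstream smoke (green squares) and air (grey triangles). Dbp and Nr1d1 lie near 0 in air and at 1.11 and 1.08 under sidestream smoke, while Hspa1b lies at 3.01 in air and at 0.61 under sidestream smoke.

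The heat shock element, to which HSF1 binds, was searched as GAA, TTC and GAA in a row with 2 bases between each. It was found in 2 of the 6 called heat shock genes with a promoter in the table, Hsph1 and Chordc1. The share was 0.577% of tested genes with a promoter and 0.603% of all promoters. Both are shown because they are the called chaperones that carry this element next to their start. The stretch of Hsph1 lies on the minus strand at chr5:149636287-149636308, with the element within the first transcribed bases, and that of Chordc1 on the plus strand at chr9:18292257-18292286, with 3 overlapping matches around the start. Capitals mark the elements, on either strand.
Hsph1: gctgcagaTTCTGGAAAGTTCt
Chordc1: caaccgGAACGTTCGGGAAAATTCCTGAAg

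Edn1 encodes endothelin-1, a peptide of the endothelium that constricts vessels and airways. It had the largest difference of the higher genes that were also called without RW-SS-6. It had 8.69, 9.64 and 10.08 (lowest, median, highest) in regular weight and 10.26, 10.62 and 11.00 in obese lungs, so that every obese array lay above every regular weight array. The difference was 1.11 ± 0.16, or 2.16-fold (adjusted p = 3.6e-05), and 0.89 without RW-SS-6 and RW-SS-8, the 2 lowest arrays for this gene (adjusted p = 7.2e-04). In air it was 0.02 ± 0.16, and the sidestream difference exceeded that by 1.09 ± 0.22 (adjusted p = 0.0063). Under mainstream smoke it was 0.55 ± 0.16 (0.074). Edn1 was the 1 member called among 24 endothelial markers, whose median difference was -0.02. Of all genes, 0.654% were called higher and 0.323% lower.

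Mfap4 and 4 other matrix genes were higher in obese lungs. Of 28 measured matrix genes of fibroblasts, 5 were called higher and none lower, 25 had a positive difference and the median was 0.23. Over all genes these shares were 0.654% called higher and 48.6% positive. Without RW-SS-6, 2 were called (Mfap4 and Col1a1) and the median was 0.26, without RW-SS-8 as well 1 was called, and without all 5 arrays that stood apart 9 were. The summed linear signal of the list was 50021 to 61127 in regular weight and 61229 to 71149 in obese lungs. In whole lung, more cells of a type and more RNA per cell cannot be told apart. Mfap4, a protein of elastic microfibrils, had 11.32, 11.62 and 11.84 (lowest, median, highest) in regular weight and 12.22, 12.70 and 13.00 in obese lungs, without overlap. The difference was 1.08 ± 0.13, or 2.11-fold (adjusted p = 6.0e-07). The same gene was higher by 0.51 ± 0.13 in air and by 0.78 ± 0.13 under mainstream smoke.

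Among fibrillar collagens, Col1a1 had 9.52, 9.90 and 10.42 in regular weight and 10.39, 10.58 and 11.10 in obese lungs, a difference of 0.66 ± 0.16 (adjusted p = 0.032). The groups touched, with 7 of 8 obese arrays above all regular weight arrays, and the call was lost without RW-SS-6 and RW-SS-8 (adjusted p = 0.095). Col3a1 was higher by 0.53 ± 0.13 (0.037), Col1a2 by 0.37 ± 0.09 (0.035) and the cross-linking enzyme Loxl1 by 0.40 ± 0.10 (0.032). These 3 were not called without RW-SS-6, where their adjusted p was 0.067, 0.071 and 0.081, although the differences of 0.53, 0.37 and 0.38 hardly moved. With the mean of all probe sets of a gene, Col1a1 and Col3a1 were not called (adjusted p = 0.069 and 0.13). Outside the list, Aspn (asporin, a small proteoglycan) was higher by 0.76 ± 0.17 (0.015), without overlap between the groups. Ddr2, a receptor for fibrillar collagen, was higher by 0.71 ± 0.13 (0.0027). Vegfd, a growth factor of lymphatic vessels, was higher by 0.59 ± 0.12 (0.0092). Aspn, Ddr2 and Vegfd were not called without RW-SS-6 and RW-SS-8 together, at adjusted p of 0.17, 0.067 and 0.060. All 14 measured smooth muscle markers had a positive difference (48.6% of all genes had one) with a median of 0.22, and none was called.

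Retnla, a secreted protein of type 2 immunity made by macrophages and airway epithelium, had 11.31, 11.48 and 12.14 in regular weight and 12.27, 12.40 and 12.72 in obese lungs. The groups did not overlap, and the highest regular weight array was RW-SS-6. The difference was 0.86 ± 0.18 (adjusted p = 0.0093), and 0.95 without RW-SS-6. The diet difference in air was -0.23 ± 0.18, and the sidestream difference exceeded it by 1.10 ± 0.26 (adjusted p = 0.024). None of the other 17 genes of eosinophils and type 2 immunity was called. Of 22 acute phase genes 2 were called higher, against 0.654% of all genes. Cp, the copper carrier ceruloplasmin, was higher by 0.63 ± 0.12 (adjusted p = 0.0027) and Serpina3n, a protease inhibitor, by 0.53 ± 0.11 (0.0093), the latter without overlap between the groups. The 7 probe sets of Cp gave -0.03 to 0.63, with 6 positive. Under mainstream smoke Cp and Serpina3n were higher by 0.67 ± 0.12 and 0.79 ± 0.11. There 9 of the 22 genes were called higher, against 0.613% of all genes. Saa1, an acute phase apolipoprotein, differed by 0.12 ± 0.15 under sidestream and by 1.35 ± 0.15 under mainstream smoke. It was the 1 gene (0.00807% of those tested) whose diet difference differed between the smokes, by -1.23 (adjusted p = 0.0087).

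Pde4b, which breaks down cyclic AMP, was higher by 0.62 ± 0.11 (adjusted p = 0.0011), and Acsm1, a medium-chain acyl-CoA synthetase, by 0.59 ± 0.13 (0.013). Pde4b was also higher in air, by 0.35 ± 0.11, and under mainstream smoke, by 0.50 ± 0.11, whereas Acsm1 differed by 0.09 ± 0.13 and 0.10 ± 0.13 there. Cpt1a, which admits fatty acids to the mitochondrion, was the 1 called gene of 29 for fatty acid oxidation, against 0.654% of all genes called higher. It was higher by 0.24 ± 0.07 (adjusted p = 0.050). The call was lost without RW-SS-6 (0.12) and with the mean of its probe sets (0.17). None of 21 genes of fatty acid synthesis and none of 35 subunits of oxidative phosphorylation was called, with or without RW-SS-6. The mean log2 level of the 21 genes on RW-SS-6 lay 1.09 above the mean of the series, against at most 0.17 on the other regular weight arrays. For the 35 subunits these values were 0.68 and 0.03, and for the 29 oxidation genes 1.04 and 0.30. Without RW-SS-6 the median went from -0.07 to 0.04 for the 29, from -0.12 to -0.06 for the 21 and from -0.10 to -0.02 for the 35.

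A second set of higher genes rested on RW-SS-6 and RW-SS-8. Of the 81 higher genes, the lowest regular weight array was RW-SS-8 in 37 and RW-SS-6 in 24, and the highest was RW-SS-2 in 37. Crim1, a transmembrane regulator of BMP signalling, had 7.57 on RW-SS-8, 7.59 on RW-SS-6, 8.78 to 10.53 on the other regular weight arrays and 9.94 to 10.58 on the obese arrays. Its difference of 1.18 ± 0.29 (adjusted p = 0.028) was 0.98 without RW-SS-6 (0.092) and 0.70 without both arrays (0.34). The transcription factor Sp1 had 7.78 on RW-SS-8, 8.20 on RW-SS-6 and 9.19 to 10.33 on the others, against 9.95 to 10.32 in obese lungs. Its difference of 0.93 ± 0.22 fell to 0.51 without both arrays (adjusted p = 0.29). Rest, a repressor of neuronal genes, had 5.90 and 5.94 on these arrays and 7.42 to 7.79 in obese lungs, a difference of 0.77 ± 0.19 that was 0.44 without both. The same 2 arrays were the lowest for Sbno1 (0.87 ± 0.21), Zeb2 (0.86 ± 0.21), Tns1 (0.67 ± 0.17), Rbfox2 (0.82 ± 0.17), Kmt2c (0.77 ± 0.16) and Ddr2.

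In these genes the obese arrays lay close together. The SD was 1.03 in regular weight and 0.23 in obese lungs for Crim1, 0.86 and 0.14 for Sp1, and 0.60 and 0.08 for Rbfox2. The SD was larger in regular weight lungs in 69 of the 81 higher genes (85.2%), in 25 of the 40 lower genes (62.5%) and in 73.0% of all genes. Different probe sets of these genes did not give the same size of difference. Those of Crim1 gave 0.11 and 1.18, those of Rest 0.09 to 0.77, those of Sbno1 0.09 to 0.87, those of Sp1 0.27 and 0.93, and those of Rbfox2 -0.00 to 0.82. With the mean of all probe sets of a gene, Rest, Sbno1, Rbfox2 and Tns1 were not called (adjusted p = 0.056, 0.065, 0.090 and 0.10). The 3′ minus 5′ signal of Actb, a measure of how intact the RNA was, was highest on RW-SS-6 (0.71) and RW-SS-8 (0.58), against 0.35 to 0.53 on the other regular weight and 0.31 to 0.51 on the obese arrays. Its part in these differences was not tested.

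Zbtb16, a transcription factor strongly induced by glucocorticoids, had 7.20, 8.18 and 9.42 (lowest, median, highest) in regular weight and 6.47, 6.69 and 7.27 in obese lungs. The groups overlapped at 1 array, 7 of 8 obese lungs were below the lowest regular weight lung, and RW-SS-6 was the highest. The difference was -1.43 ± 0.27, 2.69-fold lower (adjusted p = 0.0021), and -1.26 without RW-SS-6 (0.0085). It was measured by a probe set marked as able to match other transcripts, and the other probe set of the gene gave -0.39 (adjusted p = 0.19). In air the gene was higher in obese lungs by 1.27 ± 0.27, and the sidestream difference minus that in air was -2.70 ± 0.38 (adjusted p = 2.2e-05). Ddit4, an inhibitor of mTORC1 that stress and glucocorticoids induce, was lower (-0.38 ± 0.10, adjusted p = 0.046, and 0.099 without RW-SS-6). These 2 were the called genes among 21 of glucocorticoids and restraint stress, 17 of which had a negative difference, with a median of -0.27 (-0.23 without RW-SS-6). Of all genes, 0.323% were called lower and 48.6% had a positive difference. Fkbp5, a co-chaperone of the glucocorticoid receptor, differed by -0.50 ± 0.15 (0.087) under sidestream smoke and by 0.99 ± 0.15 in air, and the first minus the second was -1.49 ± 0.21 (adjusted p = 2.2e-05). Klf15, a metabolic regulator outside the list, was lower (-0.68 ± 0.14, adjusted p = 0.0098) without overlap between the groups.

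Cyp1a1 was lower in obese lungs under sidestream smoke, by far less than in air. It had 8.59, 8.98 and 10.14 (lowest, median, highest) in regular weight and 7.51, 7.93 and 8.78 in obese lungs. The groups overlapped, 7 of 8 obese lungs were below the lowest regular weight lung, and RW-SS-8 was the highest. The difference was -1.0 ± 0.21, or 2.00-fold lower (adjusted p = 0.0093), with -1.06 without RW-SS-6 (0.0085) and -0.89 without RW-SS-6 and RW-SS-8 (0.057). In air it was -4.84 ± 0.21, and the 2 differed by 3.84 ± 0.30 (adjusted p = 1.4e-12). Under mainstream smoke it was -0.53 ± 0.21 (0.25). The other 8 measured genes of the aryl hydrocarbon receptor pathway were not called. Ahr, the receptor, differed by 0.18 ± 0.10 (0.58), its partner Arnt by 0.04 ± 0.10 (0.98) and its repressor Ahrr by -0.10 ± 0.10 (0.87). Among the targets, Cyp1b1 differed by -0.14 ± 0.14 (0.88), Cyp1a2 by -0.14 ± 0.10 (0.73), Tiparp by -0.08 ± 0.06 (0.74), Nqo1 by -0.29 ± 0.12 (0.35) and Aldh3a1 by 0.11 ± 0.33 (0.98). None of 23 NRF2 targets, which answer to oxidants, was called, and their median was -0.06. Of all genes, 0.323% were called lower and 0.654% higher.

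The promoter of Cyp1a1 is shown for its single match to the core of the xenobiotic response element, GCGTG. The match begins 54 bases before the start, and this core is common (50.2% of tested genes with a promoter, 32.4% of all promoters). The distal elements of Cyp1a1 lie outside the window. The stretch lies on the plus strand at chr9:57697513-57697612, and capitals mark the match.
Cyp1a1: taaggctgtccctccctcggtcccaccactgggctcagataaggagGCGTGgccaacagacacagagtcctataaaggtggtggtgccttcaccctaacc

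**Figure D4:**
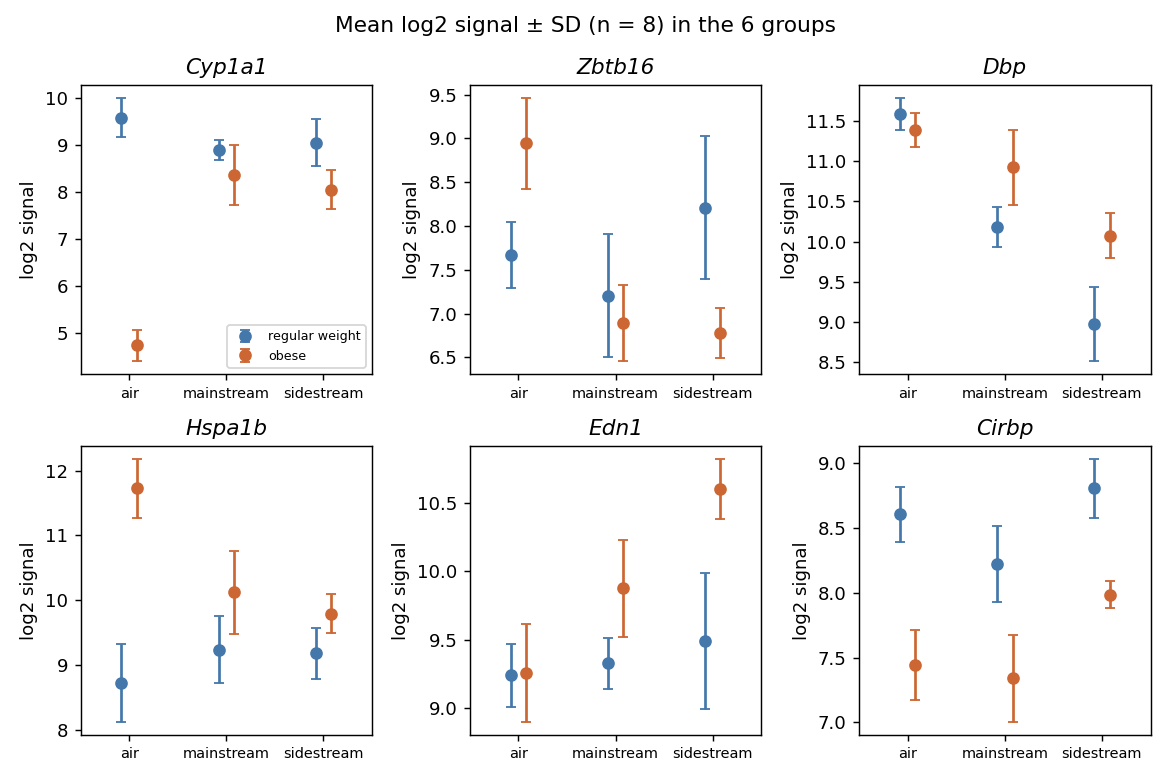
Mean log2 signal (vertical axis, bars show SD, n = 8) of 6 genes in regular weight (blue) and obese (orange) lungs in air, mainstream and sidestream smoke (horizontal axis). Cyp1a1 has a diet difference of -4.84 in air and of -1.0 under sidestream smoke, Zbtb16 is higher in obese lungs in air and lower under sidestream smoke, and Edn1 differs by 0.02 in air and by 1.11 under sidestream smoke.

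Further lower genes came from several systems. Igha, the constant region of immunoglobulin A, had 9.49, 10.38 and 12.53 in regular weight and 7.13, 8.51 and 9.72 in obese lungs. The groups overlapped, and the arrays spread widely within each (SD 0.93 and 1.0). The difference of -2.06 ± 0.52 (4.17-fold lower, adjusted p = 0.036) was -2.10 without RW-SS-6, where the call was lost (0.067). Igha was the 1 called gene of 11 of plasma cells and immunoglobulins, and none of 15 B cell markers was called. Of all genes, 0.323% were called lower and 0.654% higher. Grp, the gastrin-releasing peptide of neuroendocrine cells, was lower (-0.81 ± 0.14, adjusted p = 7.5e-04), and it was also lower in air (-0.54 ± 0.14) and under mainstream smoke (-0.70 ± 0.14). Fas, the death receptor, was lower (-0.44 ± 0.09, 0.0036), with 9.35 to 10.01 in regular weight and 9.13 to 9.38 in obese lungs. In air Fas differed by 0.14 ± 0.09, and the sidestream difference minus that was -0.58 ± 0.12 (adjusted p = 0.0076). Cxcl14, a chemokine, was lower (-0.47 ± 0.12, 0.039), and it was not called without RW-SS-6 (0.056).

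Smaller differences on the lower side included Cth, an enzyme that makes cysteine and hydrogen sulfide (-0.45 ± 0.10, adjusted p = 0.019), and Asgr1, a lectin of the asialoglycoprotein receptor (-0.66 ± 0.16, 0.028). Scarb1, the receptor for high-density lipoprotein, was lower (-0.32 ± 0.08, 0.026), as was Stc1, the hormone stanniocalcin (-0.30 ± 0.07, 0.028). Tk2, the mitochondrial thymidine kinase, was lower (-0.26 ± 0.06, 0.032). Baiap2, Tcea2, Chpf2 and Nt5c2 were lower, with differences from -0.32 to -0.28. Stc1, Baiap2 and Nt5c2 depended on the probe set. The other set of Stc1 gave 0.03, and with the mean of all probe sets the 3 genes were not called, at -0.14 (adjusted p = 0.40), -0.16 (0.096) and -0.19 (0.18). For Scarb1 that mean gave -0.30 (0.055). Baiap2, Tcea2, Chpf2, Tk2 and Klf15 had no overlap between the groups. None of the genes of this paragraph was called without RW-SS-6 and RW-SS-8 together, where their adjusted p lay between 0.053 and 0.15.

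Neutrophil markers (15), alveolar macrophage markers (17), T cell markers (17), NK cell markers (14) and interferon response genes (21) had no called gene, with medians between -0.06 and 0.04. Of all genes 0.976% were called, and lists of this size with no call are near that share. Without RW-SS-6, Krt79 of the alveolar macrophage list was called lower (-0.45, adjusted p = 0.044). All but 1 of 33 cell cycle genes had a positive difference (48.6% of all genes had one) and the median was 0.25, but none was called. Mki67 differed by 0.50 (adjusted p = 0.71) and Cdk1 by 0.59 (0.49). The median of 15 adipocyte markers was -0.20 with all arrays and 0.07 without RW-SS-6, and that of 9 brown fat markers was -0.19 and 0.20. In all, 29 of 45 lists had no called gene, 11 had 1 and 5 had at least 2. Without RW-SS-6 these counts were 33, 8 and 4, where 0.420% of all genes were called. At such shares a list with no called gene does not show that its cells or pathway did not differ.

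**Figure D5:**
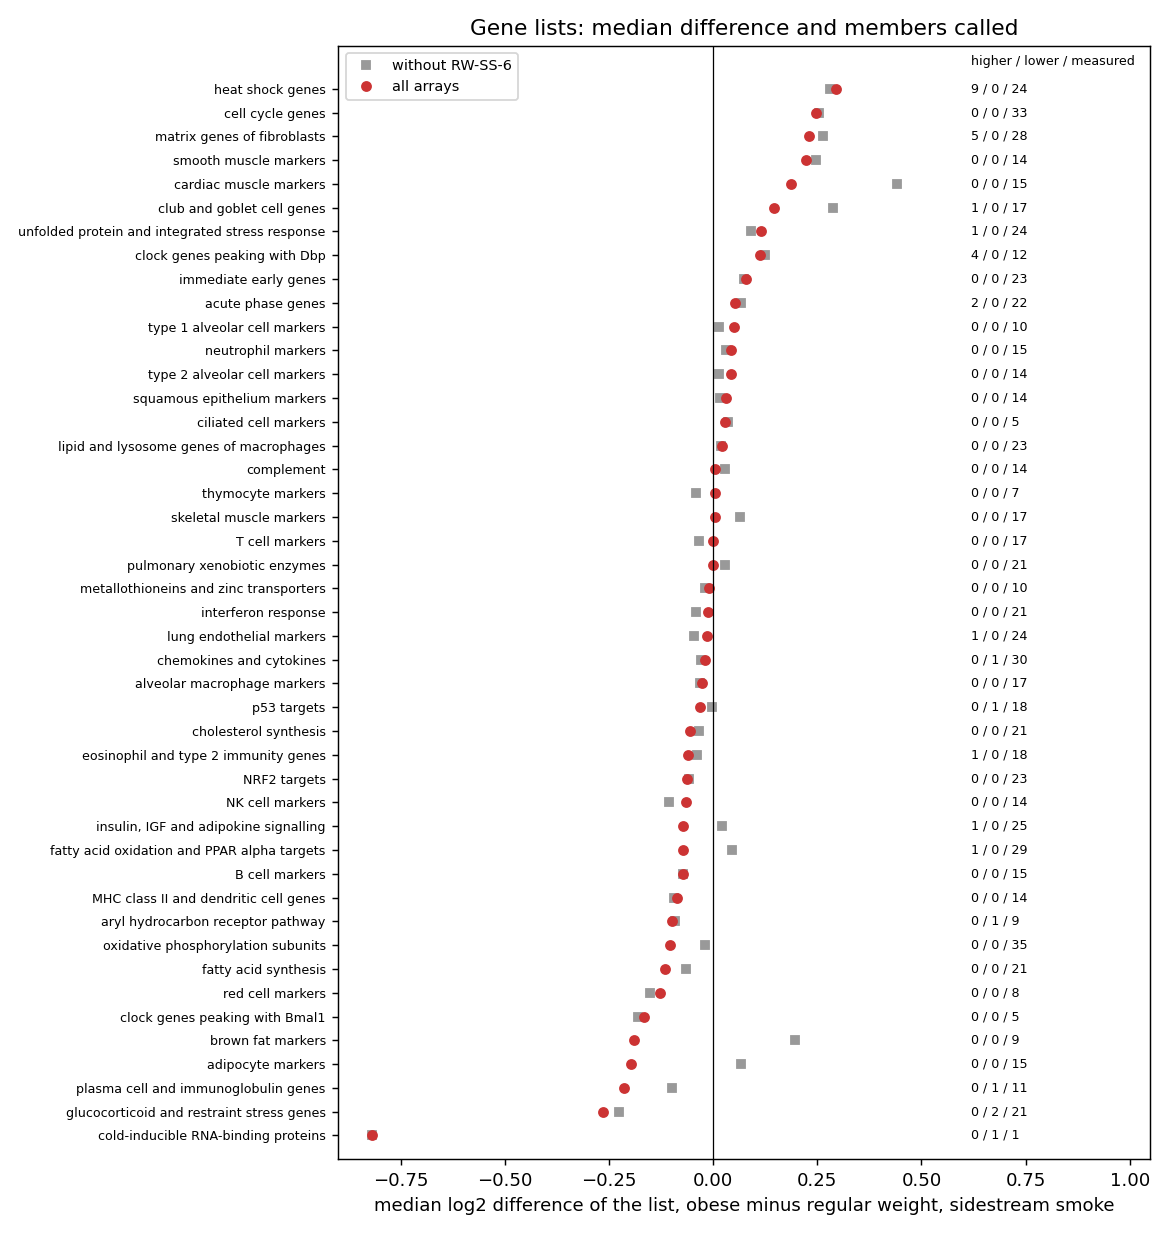
Median log2 difference between obese and regular weight lungs under sidestream smoke (horizontal axis) of each of 45 gene lists (vertical axis), with all arrays (red circles) and without RW-SS-6 (grey squares). The numbers at the right count the members called higher, called lower and measured. Heat shock genes have the highest median (0.30) and Cirbp, a list of 1 gene, the lowest (-0.82). The medians of several lists, among them adipocyte markers, brown fat markers and fatty acid oxidation, change sign without RW-SS-6.

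The diet difference under sidestream smoke was set beside the same difference in air and under mainstream smoke. The air differences include DIO-SC-3 and DIO-SC-7, whose mean correlations to the other arrays of the series (0.965 and 0.963) were the lowest. The median of 9 brown fat markers was 1.24 in air. Across genes the sidestream and air differences correlated at 0.20, and at 0.45 without the 5 arrays that stood apart. For mainstream smoke these values were 0.33 and 0.44. In air 1026 genes were called (8.28%), and 31 genes were called in both with the same direction, which was 25.6% of the sidestream genes and 3.02% of those in air, while 2 were called in opposite directions. Under mainstream smoke 150 genes were called (1.21%), and 29 were shared in the same direction, 24.0% of the sidestream genes and 19.3% of the mainstream genes, with none opposite. A set of 18 genes was called in all 3 with 1 direction. It held 7 of the 9 called heat shock genes together with Mfap4, Pde4b, Cirbp, Grp, Cxcl14 and Stc1, and without Dbp, Nr1d1 and Edn1. Without RW-SS-6, 1134 genes were called in air (9.15%), and they shared 19 with the 52 sidestream genes (36.5% of the 52 and 1.68% of the 1134). Under mainstream smoke 155 were called (1.25%), and 17 were shared (32.7% of the 52 and 11.0% of the 155). All 10 genes then called in all 3 were among the 18. The difference under sidestream smoke differed from that in air in 81 genes (0.654%; 63 without RW-SS-6), more positive in 49 (0.395%) and more negative in 32 (0.258%). The 10 of largest size were Cyp1a1, Zbtb16, Hspa1b, Hspa1a, Fkbp5, Egln3, Dbp, Fcer2a, Ighv14-2 and Retnla. Fcer2a, the IgE receptor of B cells, differed by 0.16 ± 0.15 under sidestream smoke (adjusted p = 0.85) and by -1.0 ± 0.15 in air. Of 15 B cell markers, 13 were called lower in air (5.99% of all genes were) and none under sidestream smoke, and 8 of them were called for the difference between the 2.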

How the data were processed

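Lung RNA was measured on Affymetrix arrays, each taken here as 1 animal. The deposited values are log2 signals made with RMA, per the submitters' processing notes. The sources used here do not give the version of RMA or say which arrays were normalized jointly. Of 22690 probe sets, 20380 with exactly 1 gene symbol in the array's annotation were used and 2310 were not tested. Where a gene had several (4956 genes), the brightest by its mean over all 48 arrays was taken. All 48 arrays were fitted with a mean per group in R 4.3.3 with limma 3.58.1 (eBayes without trend, not robust). Tests were two-sided, and the fit was checked on simulated data. These had normal noise with 1 SD per gene for all groups and no array that stood apart. The check therefore does not bear on such arrays or on unequal spread. Groups and replicate numbers came from the sample titles, since the source labels of 2 regular weight sidestream arrays and 2 mainstream arrays repeat earlier numbers. The files give no scan date or batch, and the number of arrays limits the precision. Of 878 list entries, 783 matched a measured gene. Genes were named by a rule: the 15 highest and 15 lowest called with and without RW-SS-6, up to 5 called genes of each list, every aryl hydrocarbon receptor and clock gene, up to 10 genes each that RW-SS-6 decides or that differ from air or mainstream smoke, and fat markers. Genes and lists were chosen with earlier results of these data known. Alternatives changed the arrays, centring, filter, probe sets, variance model, array weights and replicate block.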

Additional observations from a re-analysis of the deposited data

Results flagged for a closer look

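Within each group of 8 arrays, the highest and lowest array of each named gene was set against the others by Dixon's test, which singles out about 1 in 20 groups by chance. It singled out 17 of 182 gene and group pairs, and 10 of the 17 lay on RW-SS-6. Some genes were named because RW-SS-6 decides their call, and the fat markers after this array stood apart, so its share of these pairs was in part fixed by the choice of genes. On RW-SS-6 the fat genes Ucp1 (12.97), Pck1 (11.47), Cidea (12.05) and Fabp4 (14.25) were above the other 7 regular weight arrays. Nnat (8.66), Rasd1 (8.5), Usp2 (9.32), Cyp1b1 (8.64) and Egln3 (7.09) were above them too, and Ahr (10.53) was below. Rasd1, a small GTPase of -0.66 ± 0.16 in obese against regular weight lungs, was not called without RW-SS-6 (adjusted p = 0.083). Nnat, with 0.50 ± 0.19, was called only without it, at 0.71 (adjusted p = 0.013), as were Krt79 (-0.45, 0.044) and Casp12 (-0.33, 0.033). The 7 other pairs lay on 5 arrays, RW-SS-8 for Cyp1a1 (10.14), RW-SS-5 for Serpina3n (10.25), DIO-SS-1 for Hsph1 (10.69) and Tef (11.10), DIO-SS-6 for Nr1d1 (8.21, below the rest) and Hspa1a (8.93), and DIO-SS-8 for Pde4b (10.23, below the rest).

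For 20 named genes the diet difference under sidestream smoke differed from that in air (limma, adjusted p under 0.05). Of all 12393 genes, 81 did (0.654%). Genes with the largest such values were named because they passed this test, so the count of 20 was in part fixed by the choice of genes. The sidestream difference minus the air difference was positive for Cyp1a1 (3.84), Dbp (1.31), Fcer2a (1.17), Ighv14-2 (1.11), Retnla (1.10), Edn1 (1.09), Nr1d1 (1.0), Cp (0.71), Ahr (0.69), Nr1d2 (0.59) and Per3 (0.59). It was negative for Zbtb16 (-2.70), Hspa1b (-2.39), Hspa1a (-1.85), Fkbp5 (-1.49), Egln3 (-1.46), Klf15 (-1.07), Hsph1 (-0.75), Chordc1 (-0.63) and Fas (-0.58). Ahr was not called under sidestream smoke (0.18 ± 0.10) and was lower in obese lungs in air (-0.50 ± 0.10). Saa1 alone differed between the smokes, with a sidestream difference minus mainstream difference of -1.23. No cause of these values was tested.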

How the results depend on the processing

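None of the 55 named genes called with all arrays changed sign under any of the 29 alternatives. Of the 36 named genes not called, 11 did so under at least 1. Without RW-SS-6, Adipoq turned to 0.48, Fabp4 to 0.44, Pck1 to 0.26, Ucp1 to 0.16, Cidea to 0.05 and Usp2 to 0.03, none called. The other 5 (Arnt, Bhlhe40, Cry2, Saa1 and Tiparp) turned under other alternatives. With the mean of all probe sets, 13 of the 55 lost their call. Of the 121 genes called between the diets (81 higher, 40 lower), leaving out 1 array gave 47 to 165 (32 to 118 higher, 15 to 47 lower), lowest without RW-SS-8 and highest without RW-SS-2. Without RW-SS-6 the counts were 52, 33 and 19. With only the 16 sidestream arrays they were 415, 246 and 169, without the 5 arrays that stood apart 371, 194 and 177, and with array weights 939, 463 and 476. With alternatives chosen after seeing the data, they were 25, 20 and 5 without RW-SS-6 and RW-SS-8, and 463, 229 and 234 with 15 sidestream arrays (RW-SS-6 left out). They were 317, 162 and 155 with 14 (RW-SS-8 left out too), and 456, 276 and 180 without the 4 apart arrays outside the sidestream groups. The fit to the 16 arrays and that without the 4 leave every difference as it is and change the spread and its degrees of freedom alone. Other settings gave 105 to 161 genes. The 81 genes that differed from air became 155 without the 5 apart arrays, 51 without RW-SS-6 and RW-SS-8 and 171 without the 4, and were 63 without RW-SS-6. The 1 gene that differed from mainstream smoke became 3 without the 5, 3 without the 4 and 0 with the dimmest genes left out, which removes the gene itself. With the replicate number as a block 136 genes were called, 112 of them among the 121, and 80 and 1 differed from air and mainstream smoke. Deviations of same-numbered arrays correlated between -0.32 and 0.41, over 0.1 in 3 of 8 pairs, and 1 of 8 pairs was best with its own number. The highest values were 0.41 for number 6, the pair best with its own number, and 0.40 for number 8. Whether same-numbered arrays share more than a number cannot be settled from 8 such values.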
